A study of Mus musculus with 8 samples.

Results

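The NFAT, NR4A, EGR and TOX genes are 10 transcription factor genes whose activity or expression follows T cell receptor stimulation. They are Nfatc1, Nfatc2, Nfatc3, Nr4a1, Nr4a2, Nr4a3, Egr1, Egr2, Egr3 and Tox. Foxp3 binding sites were given to a gene when the site centre lay within 5 kb of the body of a protein-coding RefSeq gene, and otherwise to the nearest gene end within 100 kb. By that rule 14 sites belonged to the 10 genes, of 3847 common, 727 cTreg-specific and 947 eTreg-specific sites deposited. Of these, 11 were at Tox and 1 each at Nfatc2, Nr4a2 and Nr4a3, and the other 6 genes had none.

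The sites come from CUT&Tag, an assay that uses an antibody to bring a Tn5 transposase to chromatin and sequences the DNA cut nearby. All 4 groups were CD4+hCD2+GFP- Treg cells, sorted fresh from the lymph nodes and spleens of mice of the C57BL6/J strain, with 2 libraries per group. R397W cells had the genotype Foxp3R397W-IRES-hCD2/Foxp3-IRES-GFP and WT cells had Foxp3WT-IRES-hCD2/Foxp3-IRES-GFP, so that the GFP allele was shared by every group and the sort kept cells marked by the hCD2 allele. Each genotype was profiled with an anti-Foxp3 rabbit polyclonal antibody and, as background, with normal rabbit IgG. Of the list names, eTreg stands for effector Treg, while the labels used here spell out neither cTreg nor the age of the mice, and these libraries hold no measure of marker expression by which the Treg label could be checked.

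NFAT proteins are held in the cytoplasm until calcium activates the phosphatase calcineurin, after which they enter the nucleus and bind DNA with partners such as AP-1 and, in Treg cells, Foxp3. The NR4A orphan nuclear receptors and the EGR zinc finger factors are encoded by immediate early genes that are switched on soon after T cell receptor engagement, and NR4A factors are known to maintain the Treg programme in mice. TOX is an HMG-box factor needed for CD4 T cell development in the thymus and known for its high expression in chronically stimulated T cells.

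No site of these genes covered a promoter window at hand. RefSeq promoter windows (250 bases before to 50 bases after a transcription start, GRCm38.p6) were at hand for 6 of the 10 genes. Of the 14 sites 0 overlapped a window of any gene, against 535 of all sites (9.69%). Among the genes with a site, windows were at hand for Nfatc2, Nr4a2 and Nr4a3 but not for Tox. The 11 Tox sites could therefore not overlap a window of their own gene, and the Tox promoter was not tested. The nearest site centres lay 4197 bp outside the lower-coordinate end of Tox and 15.5 kb inside its higher-coordinate end. A window placed at either end would not reach them, and starts within the gene were not examined. The 250 bases upstream of the start are shown for the NR4A genes that had a site elsewhere, because they hold the cAMP response element core motifs for which NR4A promoters are known. Capitals mark TGACG, that core motif, and GGAAA, the NFAT core, each read on either strand (CGTCA and TTTCC are their reverse complements), and no match of one overlaps a match of the other. Nr4a2 is on the minus strand at chr2:57124004-57124253 and Nr4a3 on the plus strand at chr4:48045055-48045304, both written 5′ to 3′ in the direction of transcription.
Nr4a2: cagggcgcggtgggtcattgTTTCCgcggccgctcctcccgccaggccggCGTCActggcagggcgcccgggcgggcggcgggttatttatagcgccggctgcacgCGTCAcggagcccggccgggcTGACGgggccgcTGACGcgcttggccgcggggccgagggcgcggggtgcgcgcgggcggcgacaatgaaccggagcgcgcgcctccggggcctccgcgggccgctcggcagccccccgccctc
Nr4a3: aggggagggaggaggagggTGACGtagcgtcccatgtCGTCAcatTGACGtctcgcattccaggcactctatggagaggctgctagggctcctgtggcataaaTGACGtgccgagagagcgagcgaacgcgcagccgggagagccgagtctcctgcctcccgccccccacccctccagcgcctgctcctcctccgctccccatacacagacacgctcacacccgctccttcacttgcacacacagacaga
Each sequence held 4 copies of TGACG, a motif found in 17.8% of 32851 promoter windows. The NFAT core occurred 1 time in Nr4a2 and 0 times in Nr4a3, against 55.6% of windows with at least 1. The forkhead core TGTTTAC (3.17% of windows) and the AP-1 site TGANTCA (6.75%) had 0 matches in either sequence. The upstream bases were 80% G and C in Nr4a2 and 63.6% in Nr4a3, against a median of 52.4%. A match of letters describes the sequence and is not a measured binding site.

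The nearest listed sites to the promoters shown were distal. The Nr4a2 site (chromosome 2, 57116610 to 57117010, GRCm38) lay within the coordinates of the gene, with its centre 7193 bp downstream of the RefSeq start. The Nr4a3 site (chromosome 4, 48012227 to 48012627) lay 32651 bp outside the gene, 32878 bp upstream of the start shown. The Nfatc2 site (chromosome 2, 168472870 to 168473270) lay 3340 bp beyond the 3′ end of its gene. All 3 were common sites. Coordinates are as the files give them, and gene parts such as exons were not used here.

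Nfatc1, Nfatc3, Nr4a1, Egr1, Egr2 and Egr3 had no site under the rule. Egr3, which with Egr2 restrains T cell activation in mice, had the closest neighbour, a common site 11.1 kb from its body on chromosome 14 (70066058 to 70066458) that was given to Pebp4 because that gene was 6340 bp away. Its normalised signal, the read count after the authors' scaling, was 18.4 and 47.7 in the R397W Foxp3 libraries, against 108 and 84.3 in the WT Foxp3 libraries. In the IgG libraries it was 20.4 and 39.5 in R397W and 31.1 and 5.97 in WT. The R397W Foxp3 libraries were therefore below both WT Foxp3 libraries at this site, but the log2 difference of -1.65 (SE 1.03) had a limma adjusted p of 1. The nearest sites to the other genes were 25.3 kb from Nfatc1, a cTreg-specific site inside Atp9b, and 41.5 kb from Nfatc3, an eTreg-specific site inside Dus2. Those nearest to Egr1, Egr2 and Nr4a1, all common, were 77.5, 102 and 348 kb away. The R397W minus WT log2 differences of the Foxp3 libraries at these 5 sites were 0.66 (SE 1.15) for Nfatc1, 2.36 (SE 1.57) for Nfatc3, 1.47 (SE 1.64) for Egr1, 1.08 (SE 0.961) for Egr2 and -4.42 (SE 3.02) for Nr4a1, each with a limma adjusted p of 1. The R397W and WT Foxp3 libraries did not overlap at 3 of the 6 nearest sites, against 19.0% of all sites, with R397W lower at those of Egr3 and Nr4a1 and higher at that of Nfatc1. These sites belong to other genes under the rule.

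Tox had more listed sites than most genes. Its body spans 305 kb of chromosome 4 (6686353 to 6991557), and of 2760 genes with a site, 12 had more than its 11 and the median was 1. Per length it had 3.6 sites per 100 kb, against a median of 0.745 among the 167 genes of 200 to 400 kb with a site, of which 6 had more sites than Tox. Of the 11, 10 were inside the gene and 1 lay 4197 bp outside its lower-coordinate end. The sites were not spread evenly, with 7 in the 100 kb at the higher-coordinate end, 3 of these in the last 30 kb, and gaps between neighbouring starts of 5354 bp to 90 kb.

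Of the Tox sites 6 were common, 5 eTreg-specific and 0 cTreg-specific. The eTreg-specific share was 45.5% at Tox, against 16.8% of the 5210 sites that had a gene, and among 652 genes with an eTreg-specific site, 7 had more of them than Tox. The sites in the upper 100 kb were mixed, with 4 common and 3 eTreg-specific. Classes are the authors' and were taken as deposited, and the counts describe where the lists place sites.

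**Figure D1:**
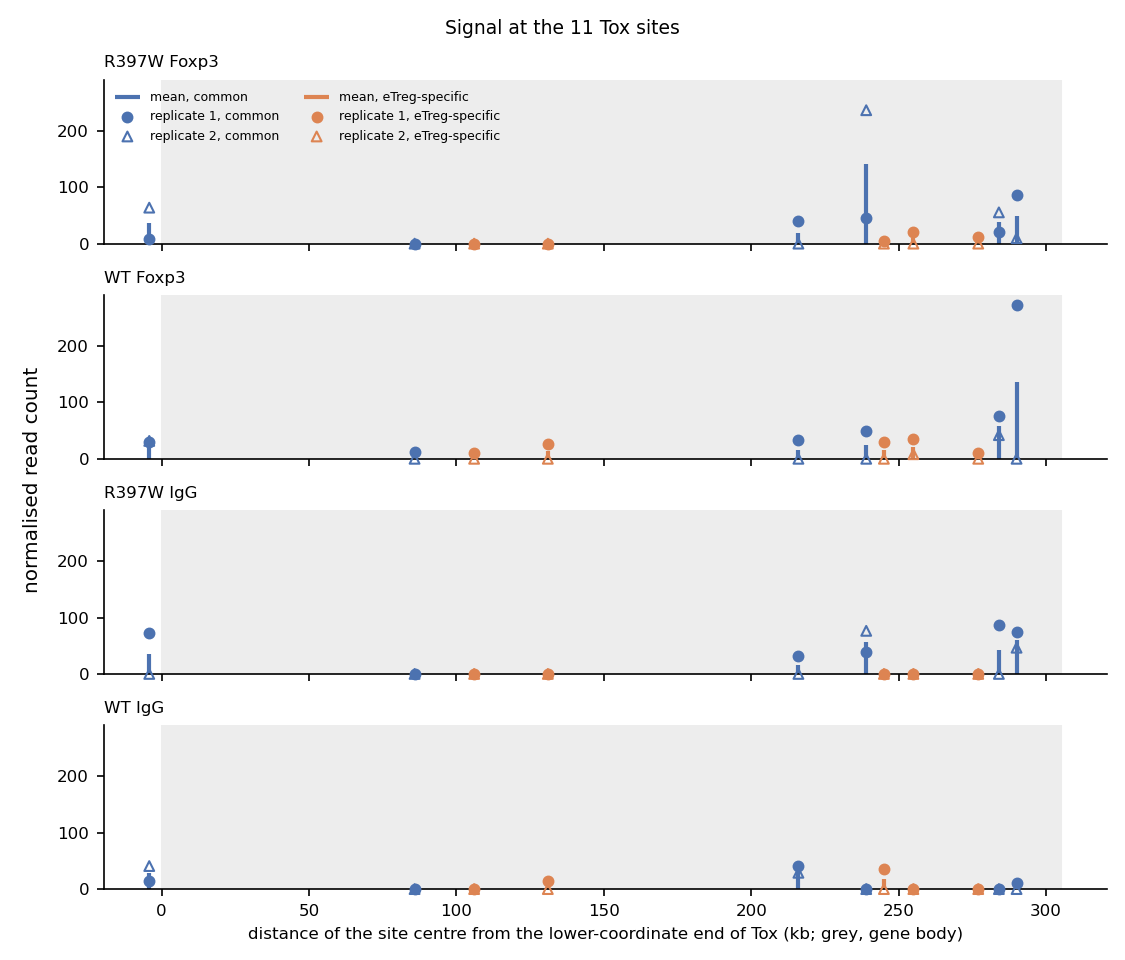
Normalised read count (vertical axis) at the 11 Tox sites against the distance of the site centre from the lower-coordinate end of the gene in kb (horizontal axis), with a panel per group and the gene body in grey. Filled circles are replicate 1, open triangles replicate 2 and bars the mean of both, coloured by class (the classes were scaled separately); the sites at 239 kb in R397W Foxp3 replicate 2 (236) and at 290 kb in WT Foxp3 replicate 1 (272) stand highest.

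Coverage was uneven between libraries. Reads in the listed sites numbered 111274 to 394196 per library, and 3.13% to 66.8% of all sites had no read. In each group replicate 2 had more sites without reads than replicate 1. One read was worth 0.384 to 2.63 units of normalised signal, depending on the library and class, so that a site listed at 0 may hold a signal of up to 1.15 to 7.88, the level of 3 reads. The 3 lists were scaled separately, so levels are compared within a class. The labels do not state whether replicates came from separate mice, and p-values then reflect only how much these libraries varied, which may be technical in origin. In bulk libraries fewer bound cells and less binding per cell cannot be told apart.

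At Nfatc2, which encodes an NFAT family member already present in resting T cells, the single site had a normalised signal of 76.1 and 0 in R397W Foxp3, against 25.5 and 76.8 in WT Foxp3. The IgG values were 15.8 and 87.2 in R397W and 27.1 and 2.49 in WT. The groups overlapped, and the highest of the 8 values was in an IgG library. The R397W minus WT log2 difference of the Foxp3 libraries was -2.37 (SE 2.65, limma adjusted p = 1), and WT Foxp3 minus WT IgG was 2.20 (SE 2.78, adjusted p = 0.991).

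Nr4a2 encodes NURR1, a nuclear receptor that can induce Foxp3 in mouse T cells. Its site had 10.5 and 112 in R397W Foxp3, against 121 and 75.4 in WT Foxp3. In the IgG libraries it had 58.8 and 1.91 in R397W, and 108 and 95.04 in WT. In WT cells the Foxp3 and IgG values overlapped, with a log2 difference of -0.08 (SE 1.83, limma adjusted p = 1). The R397W minus WT log2 difference of the Foxp3 libraries was -1.42 (SE 1.30, adjusted p = 1).

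Nr4a3 encodes NOR1, whose induction follows T cell receptor signalling so closely that it is used as a reporter of it in mice. Its upstream site had 65.6 and 113 in R397W Foxp3, against 69.1 and 8.38 in WT Foxp3. The IgG values were 122 and 0 in R397W and 20.5 and 0 in WT. R397W Foxp3 averaged 89.5 ± 33.8 and WT Foxp3 38.8 ± 43.0 (SD, n = 2 libraries each), and their values overlapped. The log2 difference was 1.77 (SE 1.33, limma adjusted p = 1). In each same-numbered pair of libraries the WT Foxp3 value was above WT IgG, but WT Foxp3 replicate 2 was below WT IgG replicate 1.

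The 3 Tox sites described singly all lay toward its higher-coordinate end. The common site at 284 kb from the lower end (6970478 to 6970878) had 21.0 and 55.4 in R397W Foxp3, against 75.2 and 41.9 in WT Foxp3. Its IgG values were 86.0 and 0 in R397W and 0 and 0 in WT. WT Foxp3 was therefore above WT IgG in every library, whereas the highest value of all was an R397W IgG library. The WT Foxp3 minus WT IgG log2 difference of 5.84 (SE 3.19) was the largest among the 14 sites, with an unadjusted limma p of 0.0676 and an adjusted p of 0.991. This fitted value depends on the added count of 1, since WT IgG had no reads. Set against the level of 3 reads in each WT IgG library, mean WT Foxp3 signal was 33.7-fold that level. With WT Foxp3 replicates 1 and 2 taken alone it was 43.3-fold and 24.2-fold. These ratios allow for read counting only and leave out variation between IgG libraries, which was 86.0 against 0 in R397W. They are no lower bound on enrichment, since the site was chosen for this difference.

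The common site at 290 kb (6975832 to 6976232) had the highest mean WT Foxp3 signal of the Tox sites, and it came from a single library. It had 86.6 and 9.66 in R397W Foxp3, against 272 and 0 in WT Foxp3, and IgG values of 74.7 and 46.5 in R397W and 9.91 and 0 in WT. Behind the WT Foxp3 values were 224 and 0 reads. The mean was lower in R397W Foxp3, at 48.1 ± 54.4 against 136 ± 192 in WT Foxp3 (SD, n = 2 libraries each), but the log2 difference was 0.89 (SE 2.98, limma adjusted p = 1), and its sign turned to -1.51 with edgeR on recovered reads.

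The eTreg-specific site at 255 kb (6940941 to 6941341) was free of reads in all 4 IgG libraries. It had 20.9 and 0 in R397W Foxp3 and 34.6 and 8.06 in WT Foxp3, from 10, 0, 40 and 21 reads. WT Foxp3 signal exceeded WT IgG in both libraries, with a log2 difference of 4.17 (SE 2.56, limma adjusted p = 0.991). Set against the level of 3 reads in each WT IgG library, mean WT Foxp3 signal was 12.1-fold that level. The ratio was 4.58-fold with WT Foxp3 replicate 2 alone and 19.7-fold with replicate 1 alone. It allows for read counting only, and this site too was chosen for its difference. The log2 difference was 3.18 without WT Foxp3 replicate 1 and 5.16 without replicate 2. The R397W and WT Foxp3 values overlapped (log2 difference -1.94, SE 3.50, adjusted p = 1).

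Values at the other 8 Tox sites ranged over 0 to 44.6 and 0 to 236 in the R397W Foxp3 libraries, over 10.4 to 48.5 and 0 to 31.7 in WT Foxp3, over 0 to 72.4 and 0 to 76.4 in R397W IgG, and over 0 to 41.0 and 0 to 40.8 in WT IgG (replicates 1 and 2 in each). WT Foxp3 replicate 1 had reads at all 8, and WT Foxp3 replicate 2 at 1. The common site at 239 kb (6924716 to 6925116), named after its values were seen, had 44.6 and 236 in R397W Foxp3, against 48.5 and 0 in WT Foxp3. Its IgG values were 38.5 and 76.4 in R397W, against 0.661 and 0 in WT. R397W minus WT was thus 3.89 (SE 2.29, limma adjusted p = 1) on the log2 scale in the Foxp3 libraries and 5.42 (SE 3.02, adjusted p = 1) in the IgG libraries, a positive value with either antibody.

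**Figure D2:**
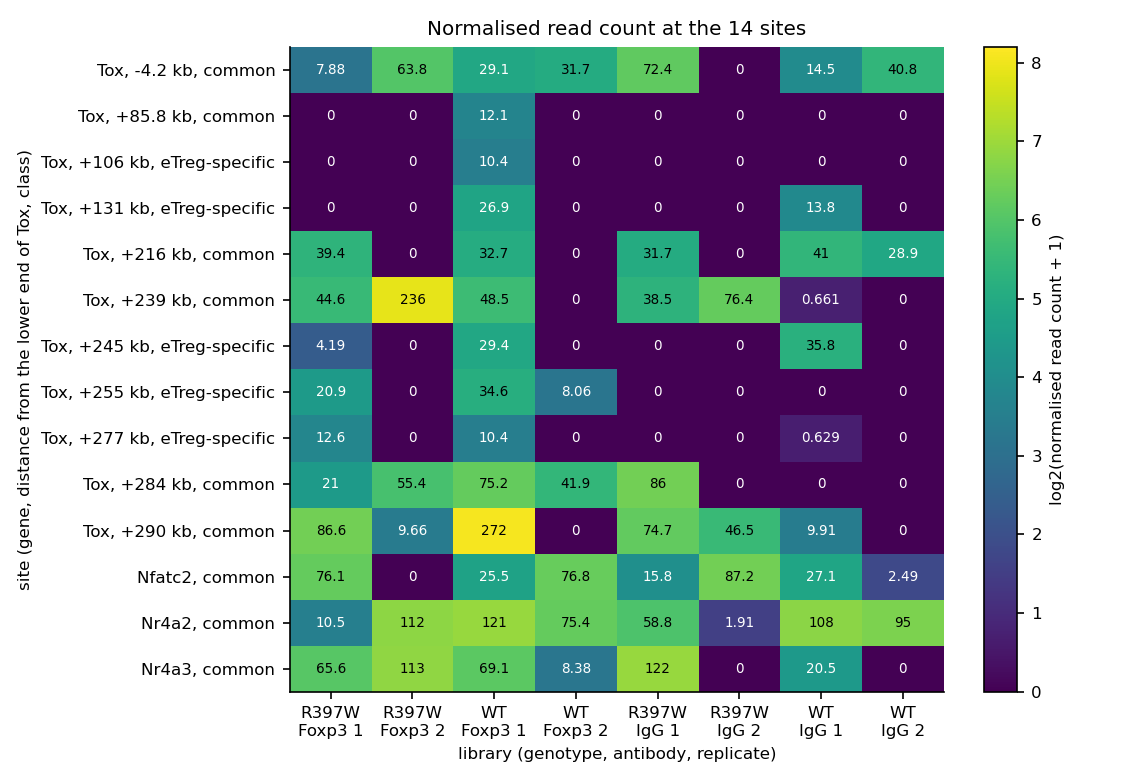
Normalised read count, printed in each cell and coloured by log2(value + 1), at the 14 sites (rows) in the 8 libraries (columns, R397W Foxp3, WT Foxp3, R397W IgG and WT IgG). Nr4a2 has reads in all 8 libraries, and 3 Tox sites (85.8, 106 and 255 kb) have none in any IgG library.

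Between R397W and WT Foxp3 libraries, no member site passed the test. By limma, 0 of the 14 sites passed an adjusted p of 0.05, as did 0 of all sites (0%), and 0 of the 14 had an unadjusted p under 0.05, against 18 of all sites. Called and unadjusted counts were 0 and 0 of 14 with edgeR and with DESeq2, where 40 and 60 of all sites had an unadjusted p under 0.05. The R397W and WT libraries were without overlap at 0 of the 14 sites, against 19.0% of all sites. Over all sites the median log2 difference was -0.39, with 3334 lower and 2123 higher in R397W. Over the 14 sites it was -0.99, with 9 lower and 5 higher. Standard errors at these sites ranged over 1.16 to 3.92, and the difference was smaller than its own standard error at 8 of the 14. The median moved with single libraries. With replicate 2 of R397W Foxp3 left out it was 0.10, and with replicate 1 of WT Foxp3 left out it was 0. Leaving out the other R397W library gave -1.76, and leaving out the other WT library gave -2.09. The median over all sites moved alike, to 0.43, 0.32, -1.79 and -1.68 in the same order.

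Leaving out WT Foxp3 replicate 2 also made 3 Tox sites pass the limma test, those at 85.8, 106 and 131 kb, where the R397W Foxp3 libraries had no reads and the remaining WT Foxp3 library had 10, 12 and 31. The same fit called 643 of all sites (11.6%), and it rests on 1 WT library that is assumed to vary like the R397W pair. With all 4 Foxp3 libraries, 0 of these 3 sites passed.

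**Figure D3:**
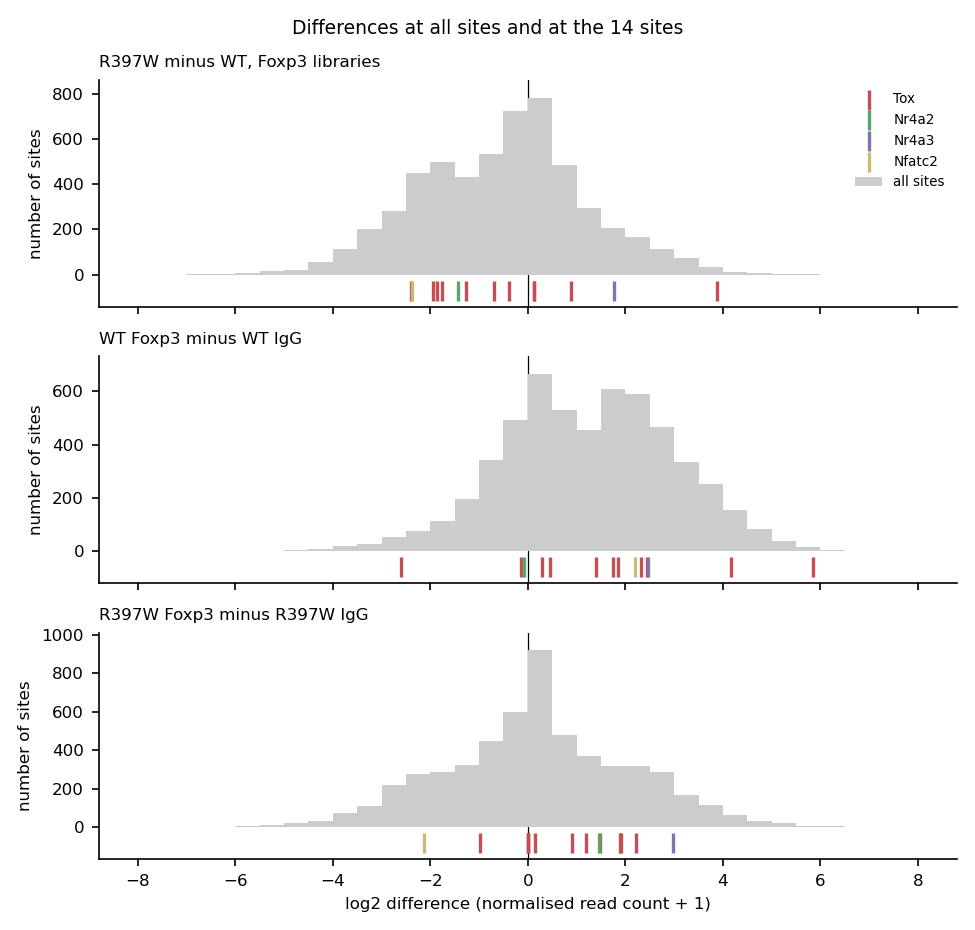
Number of sites (vertical axes) by log2 difference of the normalised read count + 1 (horizontal axis), in grey for all sites, for R397W minus WT in the Foxp3 libraries, WT Foxp3 minus WT IgG and R397W Foxp3 minus R397W IgG. Coloured ticks are the 14 sites by gene; the Tox sites at 3.89 in the first panel and 5.84 in the second lie farthest right, and standard errors are not drawn (the difference is smaller than its standard error at 8, 10 and 13 of the 14 sites in the 3 panels).

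In WT cells 0 of the 14 sites passed the limma test of Foxp3 against IgG, where 4 of all sites did (0.0725%), and 0 of the 14 had an unadjusted p under 0.05, against 142 of all (2.57%). With edgeR 0 passed and 1 of the 14 had an unadjusted p under 0.05, the Tox site at 239 kb, against 42 of all (0.761%). With DESeq2 0 passed and 2 had one, the Tox sites at 239 and 284 kb, against 197 of all (3.57%). WT Foxp3 and WT IgG libraries did not overlap at 2 of the 14 sites (14.3%), the Tox sites at 284 and 255 kb, against 24.3% of all sites. Over all sites the median log2 difference was 1.27, with 4100 higher and 1325 lower in WT Foxp3. Over the 14 sites it was 1.81, with 11 higher and 3 lower. Leaving out 1 library gave -0.18 (WT Foxp3 replicate 1), 3.33 (WT Foxp3 replicate 2) and 0.85 (WT IgG replicate 2) over the 14 sites. Over all sites the same fits gave 0, 2.68 and 0.21.

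In R397W cells 0 of 14 passed the test of Foxp3 against IgG, with 0 of all sites called (0%). By limma, edgeR and DESeq2 alike, 0 of the 14 passed or had an unadjusted p under 0.05, against 1.47%, 0.362% and 1.47% of all sites with such a p. The libraries did not overlap at 0 of the 14 sites, against 18.2% of all sites, and the median log2 difference was 1.05 over the 14 sites and 0.05 over all. The median over the 14 sites was 0 without R397W Foxp3 replicate 1, 1.53 without R397W IgG replicate 1 and -0.25 without R397W IgG replicate 2. Over all sites these fits gave -0.83, 1.32 and -0.71. These comparisons and that between the genotypes share Foxp3 libraries, so their values are given side by side only.

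The difference between genotypes of the Foxp3 minus IgG difference passed the limma test at 0 of 14 sites and at 0 of all (0%). The unadjusted p was under 0.05 at 0 of the 14 with limma (1.65% of all sites), at 0 with edgeR (0.543%) and at 1, the Tox site at 284 kb, with DESeq2 (1.97%), and 0 of the 14 passed with edgeR or DESeq2. In the IgG libraries alone, R397W against WT, 0 of the 14 sites and 2 of all sites (0.0362%) passed. The unadjusted p was under 0.05 there at 0 of the 14 with limma (2.25% of all sites), at 1 with edgeR (0.815%), the Tox site at 239 kb, and at 2 with DESeq2 (3.95%), the Tox sites at 239 and 284 kb. With edgeR and DESeq2 0 of the 14 passed.

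Shares of reads within a library and class do not depend on how libraries were scaled. The 5 eTreg-specific Tox sites held 18 and 0 reads in R397W Foxp3, against 129 and 21 in WT Foxp3, and 0 and 0 in R397W IgG, against 80 and 0 in WT IgG. As a share of all reads at eTreg-specific sites this was 0.141% in R397W Foxp3 replicate 1 (95% exact interval 0.0837 to 0.223) and 0 in replicate 2, where 3 reads would be 0.0107%. In WT Foxp3 it was 0.295% (0.246 to 0.350) and 0.0431% (0.0267 to 0.0658). Both WT values exceeded R397W replicate 2, but R397W replicate 1 lay between the WT replicates. WT IgG replicate 1 reached 0.226%, within the range of the WT Foxp3 libraries. The intervals cover counting error only.

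The 6 common Tox sites showed another order. They took 0.0921% and 0.253% of the reads at common sites in R397W Foxp3, 0.194% and 0.0502% in WT Foxp3, 0.157% and 0.0901% in R397W IgG, and 0.0427% and 0.0575% in WT IgG. Single sites weighed heavily in the higher share of each Foxp3 group. In R397W Foxp3 replicate 2, 367 of the 567 reads lay at the site at 239 kb. In WT Foxp3 replicate 1, 224 of the 387 reads lay at the site at 290 kb. The R397W Foxp3 replicate with the higher common share was the one with no reads at the eTreg-specific Tox sites. All 14 member sites together took 0.231% ± 0.134 of reads in R397W Foxp3, 0.191% ± 0.0814 in WT Foxp3, 0.164% ± 0.0493 in R397W IgG and 0.128% ± 0.0161 in WT IgG (SD, n = 2 libraries each), so the Foxp3 groups differed by less than the spread between replicates.

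**Figure D4:**
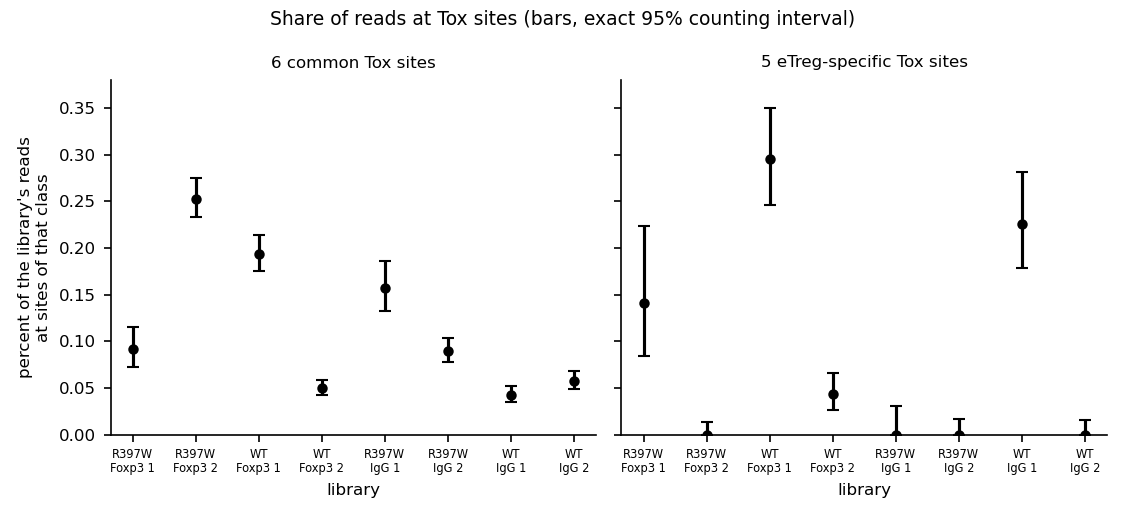
Share of the reads at common sites (6 Tox sites) and at eTreg-specific sites (5 Tox sites) that fell at Tox, in percent, for each library, with 95% exact intervals. For eTreg-specific sites the R397W Foxp3 libraries sit at 0.141% and 0% and the WT Foxp3 libraries at 0.295% and 0.0431%.

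Reads at the Tox sites were often absent from the IgG libraries. At 3 of the 11 Tox sites (27.3%) no IgG library had a read, against 468 of all sites (8.48%), and at 2 of the 11 (85.8 and 106 kb) WT Foxp3 replicate 1 alone had reads, with 10 and 12, against 144 of all sites (2.61%). Tox sites with any read numbered 8 and 4 of 11 in R397W Foxp3, 11 and 3 in WT Foxp3, 5 and 2 in R397W IgG, and 7 and 2 in WT IgG. Over all sites the shares with reads were 84.3% and 44.5%, 96.9% and 55.6%, 81.1% and 39.9%, and 73.0% and 33.2% in the same order of groups. Reads at Tox were thus present at no larger a share of sites than in general, except in WT Foxp3 replicate 1.

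Regulators and relatives of these factors were read from 4 lists of 55 genes, of which 26 had a site, with 84 sites in all. The calcium and calcineurin list had sites at 16 of 26 genes, 38 common, 4 cTreg-specific and 6 eTreg-specific. None of its 48 sites passed the limma test between R397W and WT Foxp3 libraries (0 unadjusted), where 18 were higher and 30 lower with a median of -0.38. Over all sites 2123 were higher and 3334 lower, with a median of -0.39. In WT Foxp3 against IgG none of the 48 passed (1 unadjusted, against 2.57% of all sites). Its strongest site, near Stim2, a calcium sensor of the endoplasmic reticulum, had 200 and 85.7 in R397W Foxp3, against 278 and 424 in WT Foxp3, while IgG gave 186 and 256 in R397W and 287 and 312 in WT. At that site the Foxp3 and IgG values overlapped in both genotypes. R397W was below WT without overlap in the Foxp3 libraries (log2 difference -1.38, SE 0.60, not called) and also in the IgG libraries. R397W and WT Foxp3 libraries did not overlap, in either direction, at 19.0% of all sites. A site in Itpr1, an endoplasmic reticulum calcium channel, had 200 and 97.9 in R397W Foxp3 and 335 and 96.4 in WT Foxp3, against 124 and 75.7 in R397W IgG and 155 and 43.8 in WT IgG.

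Sites were fewer at the kinases that return NFAT to the cytoplasm, with 3 sites at 3 of 7 genes, all lower in R397W (median -1.37) and 0 called. The Dyrk2 site, 89398 bp outside the gene, had 94.5 and 6.44 in R397W Foxp3, against 94.6 and 48.9 in WT Foxp3. Its IgG values were 56.6 and 0 in R397W and 44.3 and 0 in WT. Gsk3b had 42.0 and 0 in R397W Foxp3, against 71.6 and 0 in WT Foxp3 (log2 difference -0.38, SE 4.09). Its IgG values were 6.79 and 0 in R397W and 11.9 and 0 in WT. The R397W and WT Foxp3 values overlapped at both sites. Relatives and cofactors had 8 sites at 2 of 11 genes, 3 common and 5 eTreg-specific, with 6 sites at Nab1, a corepressor that binds EGR proteins, and 2 at Tox2, a paralog of Tox. The stronger Tox2 site was eTreg-specific, with 37.7 and 175 in R397W Foxp3 and 95.3 and 51.1 in WT Foxp3, against 17.4 and 0 in R397W IgG and 46.5 and 76.2 in WT IgG. The strongest Nab1 site was common and lay 67434 bp outside the gene. It had 34.1 and 0 in R397W Foxp3 and 40.0 and 0 in WT Foxp3. Its IgG values were 4.53 and 0 in R397W and 41.6 and 0 in WT. The median over the 8 sites was -0.49, with 0 called.

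Feedback regulators of T cell receptor signalling had 25 sites at 5 of 11 genes, 15 common, 7 cTreg-specific and 3 eTreg-specific, with 14 higher and 11 lower in R397W (median 0.22) and 0 called. Rasgrp1, an activator of Ras downstream of the receptor, carried 5 of the 7 cTreg-specific sites. Cblb, an E3 ubiquitin ligase that raises the threshold of T cell activation, had a cTreg-specific site with 170 and 0 in R397W Foxp3 and 274 and 130 in WT Foxp3, against 97.3 and 33.9 in R397W IgG and 224 and 79.0 in WT IgG. A common site in Cblb had 94.5 and 0 in R397W Foxp3 and 250 and 2.79 in WT Foxp3, against 134 and 0 in R397W IgG and 9.25 and 0 in WT IgG. None of the lists had a site that passed the limma test between WT Foxp3 and WT IgG.

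Across the 8 libraries the mean log2 signal of the Tox sites, centred on each library's mean, was most like that of Utrn (Pearson r = 0.878, 11 sites), Il2ra (0.847, 7 sites) and Smarce1 (0.839, 3 sites) among 522 genes with at least 3 sites, whose median r was 0.0336. Utrn encodes the cytoskeletal protein utrophin, Il2ra the alpha chain of the interleukin-2 receptor and Smarce1 a subunit of the SWI/SNF chromatin remodeller. The points share libraries and their depth, and the values describe these 8 libraries only. The gene means also pool sites of classes that were scaled separately, and the effect of class makeup on r was not tested.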

How the data were processed

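Foxp3 and IgG CUT&Tag libraries (2 per group, 8 in all, grouped by their titles) were analysed from the deposited normalised signal per site in 3 lists. The labels' protocols give a fixation of 2 minutes in 0.1% formaldehyde, added spike-in nuclei, 0.5 µg of antibody and 14 to 15 cycles of PCR. By the authors' file names this signal is spike-in normalised. Bowtie2 2.5.2, DiffBind 3.12.0, mm10 and dm6 appear without roles in the submitters' processing notes, and site calling and duplicate removal are not given in the sources used here. Columns marked RW were read as R397W. Within a library and list, 100% of nonzero values came out as whole multiples of the lowest one (tolerance 0.01), so whole reads were recovered, and each factor equalled the median-of-ratios factor of that list's own sites within 6.87e-08 percent. A loss or gain of signal over all sites of a library is removed by such factors. Coordinates were taken as mm10 and as 1-based.

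Sites were tested with limma 3.58.1 (R version 4.3.3, two-sided, with a trended empirical Bayes prior) on log2(value + 1), R397W minus WT in the 4 Foxp3 libraries, adjusted by Benjamini-Hochberg over all sites and called below 0.05. No site was filtered out, and log2 differences on this scale understate the change of weak sites. Foxp3 against IgG, the difference between genotypes of that difference, and R397W against WT in IgG were fitted over all 8 libraries. Alternatives were edgeR 4.0.16 and DESeq2 1.42.0 on recovered reads, a pseudocount of 0.5 or 5, dropping the lowest 25% of sites, no trend, equal totals, a replicate block, a 10 kb gene limit, and each library left out. Scripts were run on simulated data, where recovery of changed sites was required only at the lower simulated spread between libraries. How well changes are recovered at the spread of the real libraries is not given here. An exact permutation test of 2 against 2 libraries cannot give a p below 0.33 and was not used.

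The genes and the 4 lists of relatives were chosen with earlier results of these data known. A site was given singly when it was the strongest of its gene by mean WT Foxp3 signal, among the 3 largest non-overlapping R397W differences, among the 3 largest WT Foxp3 minus IgG differences, or called; the 2 strongest sites of each list were named likewise. The gene table (RefSeq, GRCm38.p6) has no strand; starts and strands of 6 genes come from the RefSeq promoter table. No genome sequence was used here, so the sites' own sequences are not shown.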

Additional observations from a re-analysis of the deposited data

How the results depend on the processing

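No member site passed the test in any of the 5 comparisons under any setting that kept all 8 libraries, among them the replicate block, which gave 0 called member sites and left the medians over member sites at -0.99 (R397W minus WT in Foxp3 libraries), 1.81 (WT Foxp3 minus WT IgG) and 1.05 (R397W Foxp3 minus R397W IgG). Same-numbered libraries deviated together only weakly (correlations of 0.167 between R397W and WT Foxp3, 0.0873 between R397W and WT IgG, 0.135 between R397W Foxp3 and IgG and 0.0375 between WT Foxp3 and IgG), and the labels do not say that numbers pair the libraries. With each library left out, called member sites numbered 0 to 3 for R397W minus WT in Foxp3 libraries, 0 to 2 for WT Foxp3 minus WT IgG and 0 to 2 for the genotype difference of Foxp3 minus IgG, and all of these calls came without WT Foxp3 replicate 2. Medians then ran from -2.09 to 0.10 (R397W minus WT), -0.18 to 3.33 (WT Foxp3 minus WT IgG), -0.25 to 1.53 (R397W Foxp3 minus R397W IgG), -2.89 to 1.20 (genotype difference) and -0.35 to 0 (R397W minus WT IgG). The R397W Foxp3 minus R397W IgG median was 1.24 and 0.52 with pseudocounts of 0.5 and 5, 1.19 with the lowest 25% removed, 0.96 with equal totals, 0.16 with edgeR and with DESeq2, and 0.91 with the 10 kb limit, and the R397W minus WT IgG median was 1.26 with the lowest 25% removed. That filter, which tests fewer sites, also turned the median genotype difference to 0.51, against -0.995 without it, and gave -0.39 for R397W minus WT in Foxp3 libraries. This last median was -0.64 with edgeR and with DESeq2. The median of WT Foxp3 minus WT IgG was 2.80 with edgeR, 2.99 with DESeq2 and 0.85 with a pseudocount of 5. The genotype difference was -1.81 with DESeq2, -0.56 with a pseudocount of 5 and -1.54 with the 10 kb limit. At single sites, R397W minus WT at the Tox site at 290 kb was -0.021 with a pseudocount of 5, -1.51 with edgeR and -1.50 with DESeq2, and -3.16 to 4.93 with a library left out. Its WT Foxp3 minus WT IgG value then ran from -1.72 to 6.37. The R397W minus WT ranges were -5.50 to 0.77 at Nfatc2, -3.07 to 0.23 at Nr4a2, -4.17 to 0.29 at the Tox site at 255 kb, 0.32 to 3.22 at Nr4a3 and -1.38 to -0.020 at the Tox site at 284 kb. WT Foxp3 minus WT IgG ran from -0.42 to 0.26 at Nr4a2, 0.69 to 3.70 at Nfatc2, 0.26 to 4.68 at Nr4a3, 3.18 to 5.16 at the Tox site at 255 kb and 5.42 to 6.25 at that at 284 kb. The cause of these moves was not tested. The fits without WT Foxp3 replicate 2 rest on 1 WT Foxp3 library. Calls from these fits, at member sites or elsewhere, are therefore not read as a result about the member sites. With 2 libraries per group and up to 66.8% of sites without reads in a library, only large differences could have passed at these sites.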
